A study of Mus musculus with 2 samples.

Results

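The replication-dependent histone genes were taken as every mouse gene with a protein-coding transcript and a symbol that starts with Hist1h, Hist2h, Hist3h or Hist4h. The rule gave 67 genes of 55536 annotated genes, of which 22028 were protein-coding. By cluster, 54 lay in Hist1, 10 in Hist2, 2 in Hist3 and 1 in Hist4. By type, 6 encode the linker histone H1, 18 encode H2A, 18 encode H2B, 12 encode H3 and 13 encode H4. A further 3 symbols fit the pattern but had no protein-coding transcript and were left out: Hist1h2aj, Hist1h2al and Hist3h2bb-ps.

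A nucleosome wraps DNA around a core of H2A-H2B dimers and H3-H4 tetramers, and H1 binds the linker DNA where it enters and leaves the core. Cells make most of this protein in S phase from clustered genes without introns, whose messages end in a conserved stem-loop instead of a poly(A) tail. The stem-loop binding protein and the U7 small nuclear RNP direct the cut behind that stem-loop, and the same element governs decay of the message when replication stops. Replacement variants such as H3.3 and H2A.Z come from genes outside the clusters, are spliced and polyadenylated, and are made throughout the cell cycle.

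The study sequenced total RNA after ribosomal RNA depletion, a method that does not need a poly(A) tail, from the nucleoplasmic fraction of bone marrow-derived macrophages. Other labels call the fraction nuclear. The cells were primary C57BL/6J macrophages. They were kept for 30 min with 100 ng/ml of Lipid A, the lipid anchor of bacterial endotoxin. There was 1 group of 2 libraries, biological replicates 1 and 2, started from 1 µg and 500 ng of RNA. The labels give both the same donor but separate biosamples, so their spread may be technical, and an unstimulated sample or another fraction was not analysed here. The libraries held 15846212 and 14874879 expected counts on annotated genes in replicates 1 and 2. With 1 group there was no contrast of conditions, so the values below are levels and ratios between 2 libraries, with no test.

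The stem-loop is shown for members whose values are described below, because it is the feature that sets these messages apart. Each line gives the bases of the annotated transcript in mm10, sense strand, 5′ to 3′, with the match of 16 letters in capitals and up to 5 bases on each side. The pattern searched was GG, any 2 bases, CTT, any base, T, any base, AG, any 2 bases and CC, which allows for changes in the stem and the loop.
Hist1h1c: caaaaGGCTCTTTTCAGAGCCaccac
Hist3h2a: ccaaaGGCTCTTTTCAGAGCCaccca
Hist2h2ac: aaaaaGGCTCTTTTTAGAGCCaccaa
Hist1h2bg: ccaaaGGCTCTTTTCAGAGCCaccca
Hist1h3e: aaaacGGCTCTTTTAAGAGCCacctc
Hist1h4m: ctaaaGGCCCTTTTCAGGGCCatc
Hist1h4i: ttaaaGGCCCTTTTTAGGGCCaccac
Hist1h4b: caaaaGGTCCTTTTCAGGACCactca
The motif was found behind the stop codon in 46 of 67 members. Searched over whole transcripts, sense strand, it was in 0.274% of 58725 protein-coding transcripts outside the set. The letters split by type. All 34 matching H1, H2A, H2B and H3 genes, which were 4, 11, 10 and 9 genes, had the stem GGCTC. Of the 12 matching H4 genes, 10 had GGCCC and 2 had GGTCC. The most frequent 16 letters, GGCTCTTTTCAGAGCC, stood in 26 genes. The other 21 members had no match, and no match says only that these letters are not in the annotated transcript.

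Few reads fell on histone genes in this nuclear RNA, and how these genes compared with protein-coding genes depended on the measure. At a TPM (a level scaled for transcript length and library depth) of at least 1 in both libraries, 22 of 67 members, or 32.8%, were detected, against 42.4% of all protein-coding genes. In replicate 1, 24 members reached that level, and in replicate 2, 37 did. The median member stood at 0.62 TPM in replicate 1 and 1.22 TPM in replicate 2, and at 0.96 TPM over the mean of both. The median mean TPM of protein-coding genes, many of them silent here, was 0.425. Counts of 0 in both libraries were found for 5 members, against 34% of protein-coding genes. Those 5 were Hist1h2aa, Hist1h2ao, Hist1h2ba, Hist1h2bl and Hist1h2bp. Hist1h2ao shares 93.8% of its 31-base words (the runs of 31 bases in its transcripts) with Hist1h2ap, and in the second transcript table it had 0 and 9.27 estimated counts.

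Summed over the 67 genes, replicate 1 had 849.7 expected counts and replicate 2 had 1826. That was 0.00536% of replicate 1 (95% Wilson interval 0.00502 to 0.00574) and 0.0123% of replicate 2 (0.0117 to 0.0129), intervals that cover counting error only. In summed TPM the members had 90.8 in replicate 1 and 137 in replicate 2, a mean of 114 ± 32.4 (SD, n = 2). The 11 replacement variant genes had 557.9 and 556.3 TPM, from 12709 and 17667 expected counts. Few reads carry each value: 6 members averaged 50 counts or more, 28 averaged 10 or more and 39 averaged fewer than 10.

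**Figure D1:**
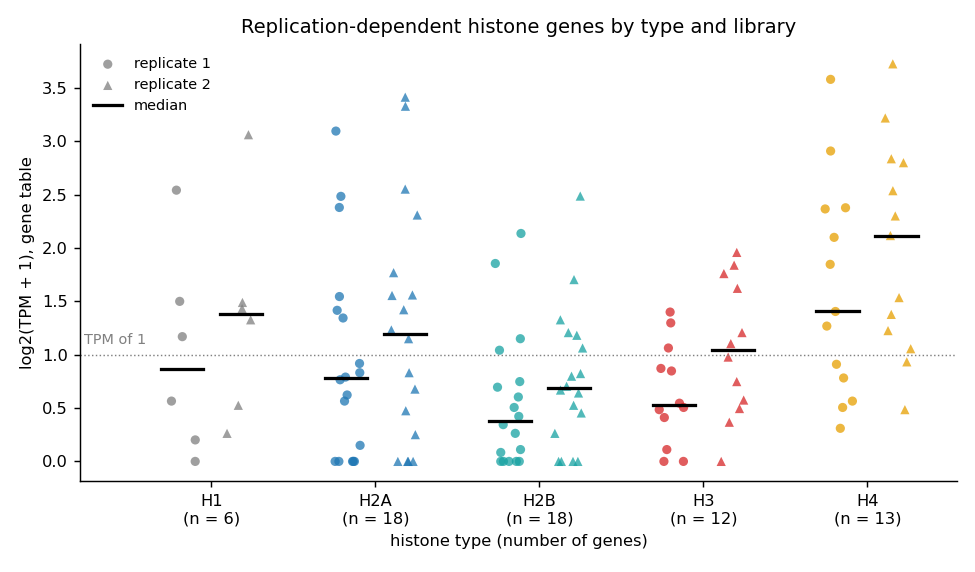
Level of each of the 67 genes as log2(TPM + 1), by histone type, with circles for replicate 1, triangles for replicate 2 and a black bar at the median of each library. H4 genes sit highest, with 8 of 13 at a TPM of at least 1 (dotted line) in both libraries, and H2B genes lowest, with 2 of 18.

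The linker histone genes were carried by Hist1h1c. Its level was 4.83 TPM in replicate 1 and 7.36 TPM in replicate 2, from 110 and 208 counts. All 6 H1 genes together had 169 and 379 counts. Hist1h1c (ENSMUSG00000036181.2, chromosome 13, 23738808 to 23740367, plus strand) is an intronless gene whose annotated transcript of 1560 bases runs past the stem-loop. Hist1h1a stood at 1.83 and 1.70 TPM and Hist1h1b at 1.25 and 1.51 TPM, and these 3 were the H1 genes detected. Hist1h1d had 0.15 TPM in replicate 1 and 0.44 TPM in replicate 2, from 18 and 67 counts. Hist1h1e had 0.48 and 1.81 TPM, from 14 and 65.3 counts. In scaled counts Hist1h1d was 3.89-fold and Hist1h1e 4.88-fold higher in replicate 2. The counting intervals on the log2 scale were 1.19 to 2.80 and 1.43 to 3.23. In the second transcript table Hist1h1d had 90.7 and 171 estimated counts, a smaller ratio, and Hist1h1e had 15 and 82.8. Hist1h1t, the testis-specific linker histone, had 0 counts in replicate 1 and 3 in replicate 2.

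H2A genes showed the widest range of the 5 types after H4. Hist2h2aa2 stood at 7.56 and 9.67 TPM in replicates 1 and 2, Hist3h2a at 4.60 and 9.06 TPM, and Hist2h2ac at 4.21 and 4.87 TPM. The other detected H2A genes were Hist1h2ap at 1.54 and 3.96 TPM, Hist1h2ae at 1.92 and 1.94 TPM, and Hist1h2ah at 1.67 and 1.35 TPM, so 6 of 18 were detected. Hist3h2a held the most counts of any member, 151 and 367, and its transcript is 2146 bases long. It lies on chromosome 11 (58954685 to 58956830, plus strand, ENSMUSG00000078851.4) wholly within Trim17, a gene on the same strand with 89 and 100.3 counts. Of the 31-base words of Hist3h2a, 67.9% occur in no other gene and 32.1% also occur in Trim17 transcripts.

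Hist2h2aa2 (chromosome 3, 96239749 to 96240276, minus strand, ENSMUSG00000063954.7) shares every 31-base word with its copy Hist2h2aa1. The same words also lie, on the opposite strand, in the antisense gene Gm20632, and no source used here says whether strand was used in counting. Of the words of Hist2h2aa1, 89.6% occur in Hist2h2aa2 too. Hist2h2aa1 and Hist2h2aa2 together had 43.5 and 80.7 counts in the gene table.

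H2B genes were the lowest type by detected share and by median level. In summed TPM they were not, at 11.5 and 16.4 in replicates 1 and 2 against 7.51 and 15.2 for H3. Only Hist1h2bc and Hist1h2bg were detected of 18, with the median H2B gene at 0.527 mean TPM. Hist1h2bc had 2.62 TPM in replicate 1 and 4.61 TPM in replicate 2, from 41.5 and 91.5 counts. Its annotated transcript is spliced, with the second exon far downstream, and the gene spans 23684199 to 23692908 on chromosome 13 (plus strand, ENSMUSG00000018102.5). Hist1h2bg had 3.40 and 2.26 TPM. It was lower in replicate 2, as were 13 of the 67 members in TPM and 8 in counts.

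H3 genes stayed low. Hist1h3e stood at 1.64 and 2.08 TPM, Hist1h3a at 1.46 and 1.31 TPM and Hist1h3d at 1.09 and 1.15 TPM, and these 3 of 12 were detected. Hist1h3i had 0.83 TPM in replicate 1 and 2.89 TPM in replicate 2, on 2.61 and 12.4 counts. Hist2h3b, with 0.80 and 2.39 TPM, had no 31-base word of its own. The highest H3 mean was 1.86 TPM, which is Hist1h3i and Hist1h3e alike.

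H4 genes made up the largest part of the level. Their summed TPM was 37.5 in replicate 1 and 52.0 in replicate 2, or 41.3% and 38.0% of all members, from 13 of 67 genes. In counts they held 26.5% and 22.7%. Hist1h4m was the highest member of all, at 10.98 TPM in replicate 1 and 12.25 TPM in replicate 2, a mean of 11.6 ± 0.898 (SD, n = 2). Its deposited interval bounds, whose level is not stated, ran from 6.55 to 14.7 and from 7.49 to 15.6. This gene lies on chromosome 13 (21811746 to 21812147, plus strand, ENSMUSG00000069306.5), and its transcript of 402 bases drew 32.9 and 50.5 counts. Hist1h4h followed at 4.20 and 8.32 TPM, Hist1h4i at 6.52 and 4.81 TPM and Hist1h4c at 3.29 and 6.15 TPM. Hist1h4k, Hist1h4n, Hist1h4d and Hist1h4b were also detected. Hist4h4, the lone gene of the Hist4 cluster, stood at 0.24 and 0.40 TPM.

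The start of the coding sequence shows how close the H4 genes are. The first 60 bases are given in mm10, sense strand, with capitals where a gene differs from the base most H4 members have.
Hist1h4m: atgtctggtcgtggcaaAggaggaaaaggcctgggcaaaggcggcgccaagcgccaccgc
Hist1h4n: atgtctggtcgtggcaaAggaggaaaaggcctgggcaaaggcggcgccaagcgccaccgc
Hist1h4i: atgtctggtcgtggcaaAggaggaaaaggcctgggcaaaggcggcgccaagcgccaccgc
Hist1h4h: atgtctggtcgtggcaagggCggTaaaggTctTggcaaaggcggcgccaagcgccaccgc
Hist1h4c: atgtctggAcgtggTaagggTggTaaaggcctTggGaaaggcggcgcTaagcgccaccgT
Hist4h4: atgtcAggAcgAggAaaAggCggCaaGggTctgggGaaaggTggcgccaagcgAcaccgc
Hist1h4m, Hist1h4n and Hist1h4i were identical over this window, and Hist1h4m and Hist1h4n over the whole coding sequence. The 13 H4 genes had 12 distinct coding sequences of 309 bases, with a median identity of 93.9% between pairs and a minimum of 85.4% between Hist2h4 and Hist4h4. Of the words of Hist1h4m, 8.33% occur in no other gene. Hist1h4m and Hist1h4n together had 47.2 counts in replicate 1 and 69 in replicate 2.

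**Figure D2:**
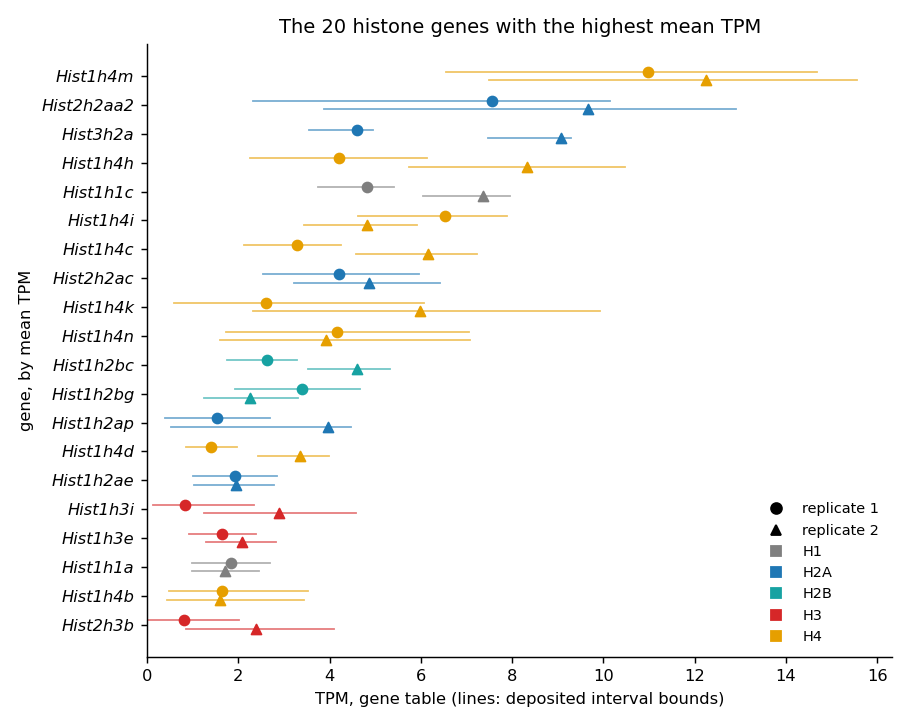
TPM of the 20 members with the highest mean, circles for replicate 1 above triangles for replicate 2, with lines for the interval bounds in the deposited gene tables and colours for the histone type. Hist1h4m leads at 10.98 and 12.25 TPM, and neighbours in the order mostly overlap.

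The order of the top members was not firm. Among the 19 neighbouring pairs of the 20 highest, the deposited bounds were apart in 1 pair in replicate 1 and in 2 pairs in replicate 2. Across all 67 members, log2(TPM + 1) in the 2 libraries had a Pearson correlation of 0.84 and a Spearman correlation of 0.74, a description over genes that share the cell source. Between the libraries, the bounds were apart for 5 of those 20: Hist3h2a, Hist1h1c, Hist1h4c, Hist1h2bc and Hist1h4d. All 5 were higher in replicate 2.

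**Figure D3:**
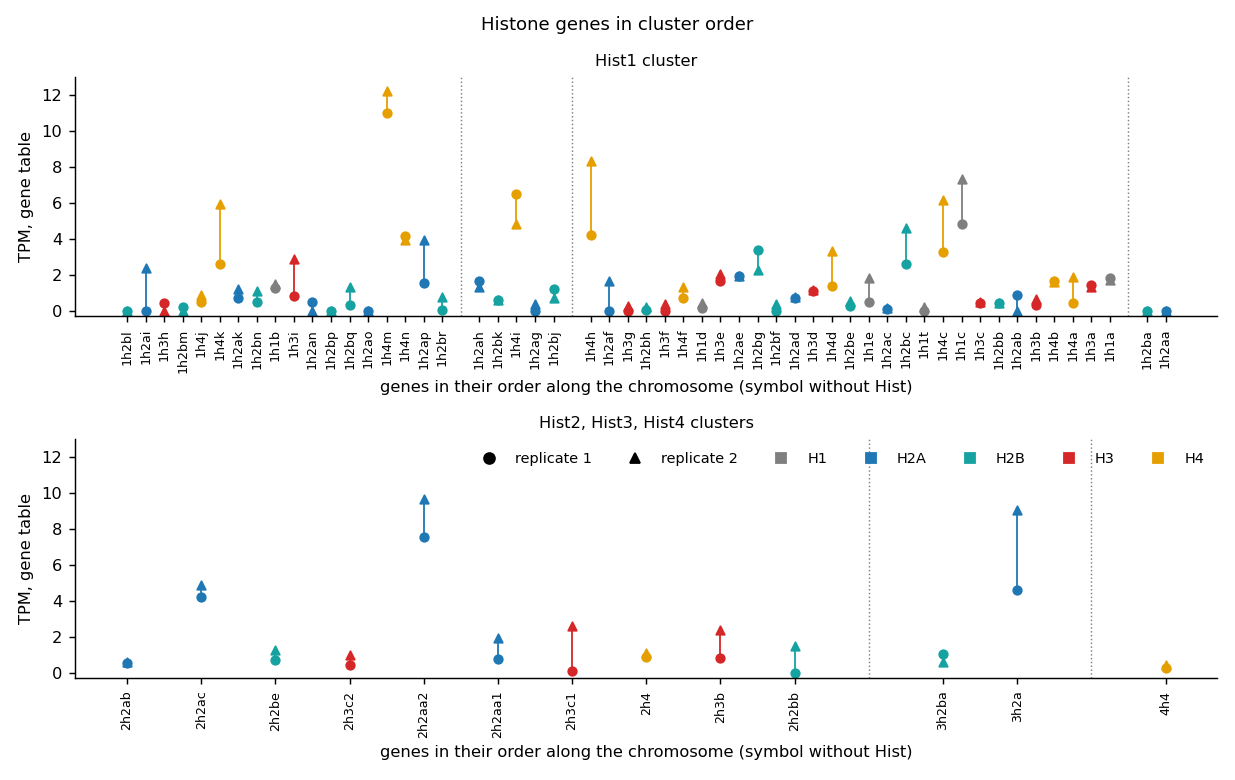
TPM of every member in its order along the chromosome, Hist1 above and Hist2, Hist3 and Hist4 below, with circles for replicate 1, triangles for replicate 2 and dotted lines between blocks or clusters. Levels change from gene to gene within a block, with Hist1h1c at 4.83 and 7.36 TPM and Hist1h1t, in the same block, at 0 and 0.20 TPM.

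By cluster, Hist1 held 554 counts in replicate 1 and 1097 in replicate 2, Hist2 held 127 and 335, Hist3 held 158 and 372, and Hist4 held 11 and 22. The 54 Hist1 genes lie on chromosome 13 in 4 blocks separated by more than 100 kb, of 18, 5, 29 and 2 genes. Of these blocks, the one with 29 genes held 12 of the 19 detected Hist1 genes and 394 and 847 counts. The block of 5 genes, which includes Hist1h4i, had 68.2 and 67.8 counts. The block of 2, Hist1h2aa and Hist1h2ba, had none in either library. Both encode histones known from the testis and germ line, and with Hist1h1t they had 0 counts in replicate 1 and 3 in replicate 2. At these depths a 0 leaves room for 3 counts, or 1.89e-05% of the replicate 1 total and 2.02e-05% of the replicate 2 total.

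Many H2A and H2B genes stand head to head and share the DNA between their starts. Within 1000 bases, 13 divergent pairs were found, of which 12 joined an H2A gene to an H2B gene. Both partners were detected in 1 of the 13 pairs, Hist1h2ae and Hist1h2bg, whose annotated starts lie 176 bases apart. Hist1h2ae had 15.6 and 20.2 counts and Hist1h2bg had 22.6 and 19.5 counts. In TPM Hist1h2ae stood at 1.92 and 1.94 and Hist1h2bg at 3.40 and 2.26. The second transcript table gave 20.9 and 40.2 estimated counts for Hist1h2ae, and 43.5 and 48.5 for Hist1h2bg. By each measure they were closer in replicate 2 than in replicate 1. Another pair was more uneven. Hist1h2bc had 41.5 and 91.5 counts where its partner Hist1h2ac had 4.38 and 8.92, and their mean levels were 3.62 and 0.15 TPM.

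The promoter window of Hist1h2bg is shown because it spans the DNA between the starts of the divergent pair detected on both sides. At its ends the window also holds transcribed bases of Hist1h2ae and of Hist1h2bg. It is taken from RefSeq, build GRCm38.p6, chr13:23571150-23571449, plus strand, from 250 bases before the start to 50 after it. Capitals mark CCAAT (or ATTGG on the other strand), ATTTGCAT and TATAAA, which do not overlap here.
Hist1h2bg: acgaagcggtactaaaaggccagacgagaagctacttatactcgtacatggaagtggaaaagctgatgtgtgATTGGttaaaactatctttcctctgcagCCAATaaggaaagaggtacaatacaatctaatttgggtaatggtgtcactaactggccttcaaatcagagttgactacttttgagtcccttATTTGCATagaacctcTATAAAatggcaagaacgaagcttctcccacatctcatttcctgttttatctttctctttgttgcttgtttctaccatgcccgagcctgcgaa
The window of Hist1h4m, the highest member, is shown for contrast, at chr13:21811496-21811795, plus strand.
Hist1h4m: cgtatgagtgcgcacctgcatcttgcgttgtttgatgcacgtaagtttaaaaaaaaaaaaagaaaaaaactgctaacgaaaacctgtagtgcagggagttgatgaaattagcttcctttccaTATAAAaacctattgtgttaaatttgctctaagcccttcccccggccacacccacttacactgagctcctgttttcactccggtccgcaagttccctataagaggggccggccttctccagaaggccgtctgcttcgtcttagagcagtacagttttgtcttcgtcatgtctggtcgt
RefSeq windows were matched for 62 members, with 63 windows. On either strand, CCAAT was in 54 of 63 windows, or 85.7%, against 37.3% of 32788 other promoters. It was in every window of H1, H2A, H2B and H3 genes and in 3 of 12 windows of H4 genes. TATAAA was in 55.6% of member windows, against 13.5% of the others. ATTTGCAT, the octamer that OCT factors are known to bind, was in 22.2%, against 1.70% of the others, namely 7 of 18 H2A and 7 of 17 H2B windows. Windows of divergent pairs overlap, so they are not independent. A match is a description of letters and not a site in use.

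Histone genes were higher in replicate 2 than in replicate 1. After TMM scaling, which sets the libraries to a common depth, the summed counts of the 67 members were 2.25-fold higher in replicate 2, with a 95% counting interval of 2.07 to 2.44. Of the 6 members that averaged 50 counts or more, 5 were higher in replicate 2, where 47.6% of all genes at that level were. Their median log2 ratio was 1.09, against -0.03 over all 10439 such genes with counts in both libraries. A ratio above 2 in favour of replicate 2 was found for 3 of the 6, against 5.2% of all genes, and the opposite for 0 of the 6, against 3.79%. With 10 counts or more, 26 of 28 members were higher in replicate 2, against 50.7% of all genes. There 14 members were more than 2-fold higher, against 8.91%, and 0 were more than 2-fold lower, against 5.44%. Some of the 14 averaged 10 counts only through replicate 2, such as Hist2h3c1 (2.14 and 87.2 counts) and Hist1h2ap (6.69 and 22.9). The depths also differ. Of the 14462 genes behind these shares, 10444 averaged 50 counts or more, against 6 of the 28 members. The shares are therefore not a like comparison, and counts for short and for intronless genes are given below. The ratio is between libraries that differ in starting RNA, and the part of that difference was not tested.

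The members above 2-fold at 50 counts were Hist3h2a at a log2 ratio of 1.35 (counting interval 1.07 to 1.63), Hist1h4c at 1.31 (0.72 to 1.96) and Hist1h2bc at 1.21 (0.65 to 1.76). Hist1h1c stood just under the limit at 0.98 (0.64 to 1.33), and Hist2h2aa2 at 0.82. Hist1h4i was the exception at -0.02 (-0.61 to 0.53). Its 55.6 counts in replicate 1 and 52.3 in replicate 2 made the 5-gene block of Hist1 nearly equal in both libraries, at 1.04-fold.

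By type, the summed counts were 2.35-fold higher in replicate 2 for H1, 2.29-fold for H2A, 1.99-fold for H2B, 3.48-fold for H3 and 1.93-fold for H4. The H3 value rests on Hist2h3c1, which had 2.14 counts in replicate 1 and 87.2 in replicate 2. Without it the H3 ratio was 2.12-fold (1.56 to 2.93), and the counting intervals of the other 4 types overlap that value. Hist2h3c1 lies wholly within Gm20634 on the same strand and has no 31-base word of its own. Gm20634 had 71.7 and 127 counts. In the second transcript table Hist2h3c1 had 0 and 4.14 estimated counts, and Gm20634 had 71.6 and 351. There the high count in replicate 2 was not given to Hist2h3c1. Together the 2 genes had 73.8 and 214 expected counts, and 71.6 and 355 estimated counts. Before scaling, their sum was thus higher in replicate 2 in both tables.

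Intronless genes of any length and short genes outside the set also leaned toward replicate 2, by less in the median. Intronless nuclear protein-coding genes outside the set had a median log2 ratio of 0.32 (92 genes averaging 50 counts or more) and 0.34 (192 genes averaging 10 or more). Protein-coding genes of at most 5 kb had 0.32 (660 genes) and 0.39 (1141 genes). Of the 660, 458 were higher in replicate 2, 103 of them above 2-fold, and 13 were more than 2-fold lower. Of the 1141, 815 were higher, 243 of them above 2-fold, and 30 were more than 2-fold lower. Of the intronless genes, 62 of 92 and 133 of 192 were higher, 6 and 29 of them above 2-fold. More than 2-fold lower were 9 of the 92 and 12 of the 192. TPM gave a smaller ratio. On that scale the median gene with 50 counts or more stood at a log2 ratio of -0.44. The 6 members had a median TPM ratio of 0.71 on the log2 scale, which is 1.15 above that median.

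**Figure D4:**
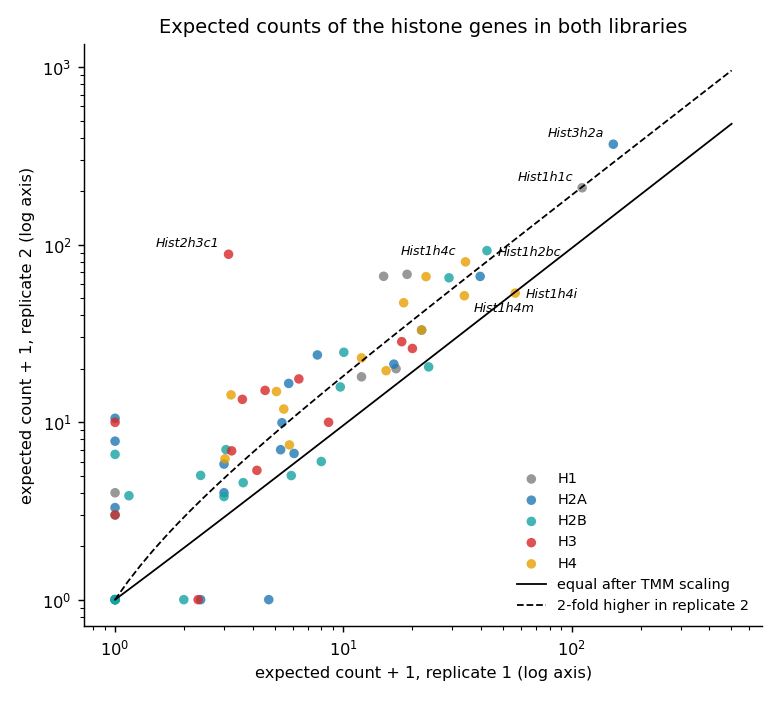
Expected counts + 1 of the 67 genes in replicate 1 (x axis) and replicate 2 (y axis), both on log axes, coloured by histone type, with a solid line at equal scaled counts and a dashed line at 2-fold higher in replicate 2. Most points lie above the solid line, Hist1h4i lies on it at 55.6 and 52.3 counts, and Hist2h3c1 lies far above at 2.14 and 87.2.

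Much of the histone count fell in annotated transcripts longer than the classical message. Of the 75 transcripts of the 67 genes, 23 ended within 100 bases of the stem-loop, 23 ran more than 100 bases past it, 19 ended before any match, 8 were spliced and 2 of other kinds had no match. Transcripts that ran past the stem-loop held 63.3% of member counts in replicate 1 and 66.2% in replicate 2. Those that ended at the stem-loop held 20.5% and 16.7%. Spliced transcripts held 6.25% and 6.15%.

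In TPM, which corrects for length, the order turned. Transcripts ending at the stem-loop had 46.4% of member TPM in replicate 1 and 39.5% in replicate 2, against 36.4% and 36.5% for those running past it. Longer kinds in all, which adds spliced and unmatched transcripts, held 73.5% and 76.7% of counts and 40.7% and 41.6% of TPM. Of 62 members the annotation holds 1 transcript only, so a gene's reads have nowhere else to go, and these shares describe the annotation as much as the 3′ ends present. The signal AATAAA lay in the last 50 bases of 11 of 23 transcripts that ran past the stem-loop and in 0 of 23 that ended at it. Outside the set, 40.6% of protein-coding transcripts had it.

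Sequence shared between copies limits single-gene values. The median member had 39.8% of its 31-base words in no other gene, 14 members had under 10%, and 5 had none: Hist2h2aa1, Hist2h2aa2, Hist2h2bb, Hist2h3b and Hist2h3c1. H1 genes were distinct, at a median of 96.2%, and H2A genes were the least so, at 22.9%. The coding sequence was identical within 5 pairs, which besides those named were Hist1h2ao with Hist1h2ap, Hist1h2bq with Hist1h2br and Hist2h3c1 with Hist2h3c2. In addition, 24 members overlap a gene outside the set, 7 of them on the same strand.

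The deposited text files name the read files as the source of the second transcript table. It held 21932480 estimated counts on annotated genes in replicate 1 and 25815351 in replicate 2, more than the gene table. The members had 1234 estimated counts in replicate 1 and 2824 in replicate 2. As shares these were 0.00563% and 0.0109%, against 0.00536% and 0.0123% in the gene table. Over the 67 members, the counts of the 2 tables had Spearman correlations of 0.90 and 0.89. With each table scaled to its own total, the median log2 ratio of the second table to the gene table was -0.23 in replicate 1 (22 members with at least 10 counts) and -0.20 in replicate 2 (33 members). Protein-coding genes had -0.06 and -0.07.

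Above 2-fold in the second table were 2 members in replicate 1 and 1 in replicate 2, where 9.01% and 7.19% of protein-coding genes were. Below 2-fold were 0 and 2 members, where 0.258% and 0.421% of protein-coding genes were. Some genes with long transcripts, named here after their values were seen, had more counts in the second table. Hist1h1d, annotated at 7425 bases, had 90.7 and 171 estimated counts, against 18 and 67 expected counts. Hist4h4 had 40.1 and 88.4, against 11 and 22. With each table scaled to its own total, the log2 ratios were 1.86 and 0.56 for Hist1h1d and 1.40 and 1.21 for Hist4h4. Before scaling, sums over pairs with an identical coding sequence were close in some cases and apart in others. The second table has the larger total, so a close sum there is a lower share. Hist1h4m with Hist1h4n had 48.3 and 75.4 estimated counts, against 47.2 and 69 expected counts. Scaled to the totals, Hist1h4m stood at log2 ratios of -0.49 and -0.65 and Hist1h4n at -0.32 and -0.73. Hist1h2bq with Hist1h2br had 34.7 and 45.5 estimated counts, against 8.84 and 17.6 expected counts. Hist2h3c1 with Hist2h3c2 had 7.70 and 29.3 estimated counts, against 7.52 and 103.7 expected counts.

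**Figure D5:**
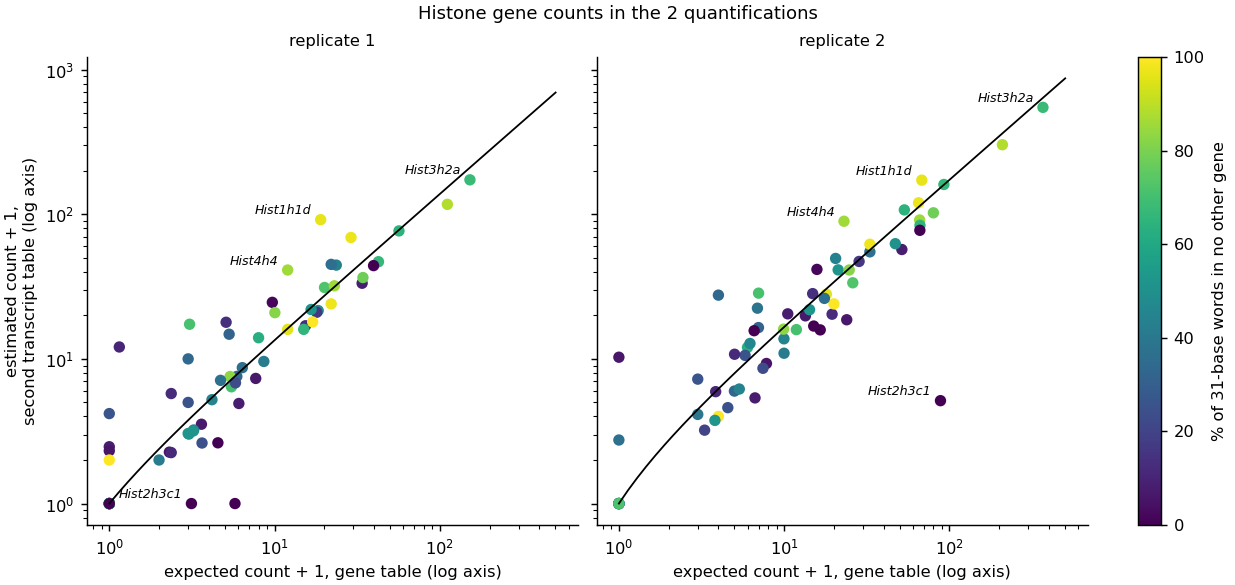
Expected count + 1 in the gene table (x axis) and estimated count + 1 in the second transcript table (y axis) for each member, log axes, replicate 1 left and replicate 2 right, coloured by the percent of 31-base words found in no other gene, with a line where both tables give the same share of their total. Most members lie near the line, and Hist2h3c1 lies far below it in replicate 2 at 87.2 expected and 4.14 estimated counts.

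Genes that make, process, destroy or carry histones were measured beside them. The replacement variants, of which 3 (H1f0, H2afx and H1fx) are annotated with 1 exon, had 8 of 11 genes detected, with a median of 3.41 mean TPM. H3f3b, which encodes H3.3, stood at 359 TPM in replicate 1 and 388 TPM in replicate 2. Cenpa, the centromeric H3, had 73.1 and 80.1 TPM, and H2afy, which encodes macroH2A, had 85.3 and 44.2 TPM. Of the 7 variants that averaged 50 counts or more, 6 were higher and 1 lower in replicate 2, with a median of 0.62 for the scaled log2 ratio. Among these 7, only H2afj was above 2-fold in scaled counts, at a log2 ratio of 1.00 (48 and 92 counts). H2afx had a larger ratio, at 1.28, on fewer counts (19 and 44). Of 5 germ-line histone genes outside the clusters, none reached 1 TPM, and H1foo had 5 counts in each library while the other 4 had 0.

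Genes for histone message processing had 13 of 16 members detected. Slbp, the stem-loop binding protein, stood at 7.37 and 9.67 TPM, and Npat, the coactivator of histone transcription, at 1.95 and 3.09 TPM with a scaled log2 ratio of 1.02. The highest were Srrt at 71.5 and 38.5 TPM, Sympk at 23.5 and 16.3 TPM and Cpsf3 at 16.5 and 14.1 TPM, which have wider roles in RNA 3′ end formation. Of the proteins of the U7 particle, Lsm10 stood at 4.04 and 2.47 TPM and Lsm11 at 0.31 and 0.33 TPM. Slbp, Lsm10 and Lsm11 were chosen after their values were seen.

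Of the genes listed for histone message decay, 7 were found under the symbols used, and 6 of these were detected. Tut7 and Tut4, uridyltransferases that mark histone messages for decay, had 119 and 69.2 TPM and 59.9 and 31.6 TPM. Smg1, the kinase that acts on Upf1, had 91.5 and 46.7 TPM. The 5 of them that averaged 50 counts or more were all lower in replicate 2, with a median of -0.52 for the scaled log2 ratio. Of all 10439 genes at that level, 5470 were lower there.

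DNA replication and S phase genes had 19 of 27 detected, at a median of 1.81 mean TPM. Pcna, the replication clamp, stood at 24.0 and 29.5 TPM, Tk1 at 21.5 and 18.3 TPM and Cdk2 at 7.80 and 6.11 TPM. Of the 18 that averaged 50 counts or more, 10 were higher and 8 lower in replicate 2, with a median of 0.25 for the log2 ratio. Mcm7, part of the replicative helicase, was above 2-fold at 1.05. Histone chaperones had 14 of 15 detected and 7 higher and 7 lower in replicate 2, led by Atrx at 152 and 66.1 TPM, Npm1 at 36.8 and 35.8 TPM and Ubn1 at 43.2 and 23.2 TPM.

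The cell type label was checked against marker genes. All 8 macrophage markers were detected, led by Lyz2 at 1465 and 2295 TPM, Csf1r at 599 and 540 TPM and Cd68 at 158 and 219.9 TPM, and Lyz2 was above 2-fold in scaled counts at a log2 ratio of 1.03. None of 4 T cell, 4 B cell, 5 erythroid and 4 fibroblast markers reached 1 TPM in both libraries. Their summed TPM lay between 0.04 and 0.38 in each list and library. Of 6 neutrophil and precursor markers 1 did, S100a9 at 1.24 and 1.09 TPM.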

How the data were processed

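The deposited text files name mm10 and GENCODE M21 for the gene table and both transcript tables of each library. Aligner, counter and strand setting are not given. The authors deposited expected counts, TPM and interval bounds of TPM per gene (file headers). Per the file headers, the deposited second transcript table has an estimated count and a TPM per transcript, which were summed here by gene.

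Members were found by symbol and transcript class. The members and lists were chosen with earlier results of these data known. Spike-ins and unannotated features (1.19% and 0.213% of expected counts in replicates 1 and 2) stayed out of totals. Expected counts were rounded and scaled by TMM (edgeR 4.0.16), with DESeq2 1.42.0 size factors as an alternative. Count intervals are exact binomial at 95%, given both libraries' scaling. The scaled ratio between libraries was the only step tested on simulated data, with changes placed in well-counted genes. Most members have fewer counts than those. Wilson and binomial intervals cover counting error only.

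Named were the 20 members highest by TPM, those beyond 2-fold at a mean of 50 counts, the highest of each cluster and type, and the germ-line members. They also took in the members with the largest difference between tables and the largest share in longer transcripts. Of each list, the 3 highest were named, and those beyond 2-fold at a mean of 50 counts. Members named outside this rule were chosen after their values were seen. Stem-loop and coding sequences came from the mm10 genome with the M21 annotation, promoters from RefSeq.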

Additional observations from a re-analysis of the deposited data

How the results depend on the processing

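No paired analysis was possible because the labels give 1 group, so no replicate numbers are shared between groups. The scaling with factors from genes of 50 counts or more and the values without Hist2h3c1 were alternatives chosen after seeing the data, as were leaving out a library for the detected members, the shares, the tables and the lists.

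Of the 67 members, 22 were detected as reported, 35 at a limit of 0.5 TPM, 12 at 2 TPM, 12 by TPM of the second transcript table, and 24 to 37 with 1 library left out. The median log2 ratio of TPM in the second table to TPM in the gene table was -0.75 over all genes in each library. In the mean of both libraries, the 20 highest members were all lower in the second table, 18 by over 1.5 times.

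The split by type and cluster depended on the unit. In TPM, H1 held 9.46%, H2A 28.8%, H2B 12.3%, H4 39.7%, Hist1 74.5%, Hist3 6.65% and Hist4 0.278% of the members, where counts gave 20.3%, 30.9%, 14.5%, 24.6%, 62.7%, 19.5% and 1.25%. In estimated counts H1 held 21.1%, H2A 28.8%, H2B 19.3%, H3 6.63% (9.60% in expected counts), Hist3 17.4% and Hist4 3.19%. Without Hist2h3c1, H2A held 31.8%. TPM divides by transcript length, so long transcripts weigh less by construction. The share of longer transcripts was 75.1% of counts and 41.1% of TPM.

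The median log2 ratio of the 6 members with 50 counts was 0.71 in TPM, and the summed ratio was 0.59 in TPM and 1.00 in estimated counts, against 1.09 and 1.17. Members beyond 2-fold were 3, but 0 in TPM, 5 in the second table, 14 at 10 counts and 26 with no minimum. No alternative that was run turned the direction of these ratios. The ratio between tables was -0.21, or -0.15 relative to protein-coding genes. Of the germ-line genes outside the clusters, 1 passed at 0.5 TPM. Apart from what the construction of each unit shows, the cause of these differences was not tested. In all, 124 of 168 alternative values stayed within the spread of the libraries, the counting interval or 1.5 times the count. For levels, shares and the ratio between tables, leaving out 1 library always gives a value within the SD of the 2 libraries. Those values are among the 124 by construction, so the tally does not measure stability.

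Depth limits single genes: 39 members averaged fewer than 10 counts and carry wide counting error.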
